A study of Caenorhabditis elegans with 4 samples.

Results

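The X chromosome of *Caenorhabditis elegans* carried 461 of the 8121 regions that the authors listed as enriched for RNA polymerase II in early embryos. All lines placed on X were taken, whatever their q-value or width. The embryos came from hermaphrodites of the wild-type strain N2, and the labels give 20 degrees Celsius as the temperature. There were 2 libraries of immunoprecipitated DNA (ChIP) and 2 libraries of input DNA, all from wild-type animals with no treatment or allele added, and 1 combined list stands for all 4. The ChIP antibody was 8WG16, a mouse monoclonal antibody to the heptapeptide repeat of the largest polymerase subunit. The protocol text shared by all libraries names an anti-GFP serum instead, and the antibody field of the ChIP libraries was followed. The labels do not say how many animals went into a library, and whole embryos were lysed, so the values are averages over all embryonic cells.

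Polymerase II transcribes protein-coding genes and many small nuclear RNA genes, and ChIP enrichment marks DNA where it is bound, paused or elongating. In *C. elegans* hermaphrodites both X chromosomes are bound by the dosage compensation complex, a condensin-like machine that lowers transcription from X. X is also known to be poor in genes that are active in the germline, and much of the RNA in an early embryo is made by the mother's germline. Worm autosomes have gene-rich centres and repeat-rich arms, a contrast that is milder on X.

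Each line of the list holds the first and last base of a region in the coordinates of WormBase release WS180 and a q-value, which is a p-value corrected for multiple tests. The numbers of ChIP and input reads behind each q-value were recovered from it, and this succeeded for 461 of 461 X regions. The fold of a region is its ChIP reads divided by its input reads, and its excess is ChIP minus input reads. Input reads are the numbers the authors tested, which may already have been scaled. Intervals are exact 95% Clopper-Pearson intervals and cover counting error at most, since sequencing reads are not independent molecules. Of 18572 regions tested over the whole genome, 8168, or 44.0%, had ranks up to the last listed region. The first 47 ranks had no line in the list used here, and any X regions among them are missing from all counts below. With 1 combined list no value has a replicate error. Differences within X, and between X and other chromosomes, are therefore given as descriptions without a test, and neither regions nor bins are replicates. Regions were not assigned to genes and their sequences are not shown, since no genome or annotation of WS180 was used here.

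The X regions covered 0.799 Mb of the 17.6 Mb between the first base of the first region and the last base of the last. They held 175738 ChIP reads and 91757 input reads. A single region held between 22 and 3220 ChIP reads, with a median of 202, and between 7 and 1366 input reads, with a median of 118. The median X region was 1028 bp wide, the middle 50% lay between 514 and 2323 bp, and the extremes were 4 and 10407 bp. The fold ran from 1.20 to 6.97, with a median of 1.82 and quartiles of 1.56 and 2.19. Most X regions were thus enriched less than 2-fold over input, and only 25 of the 461 (5.42%) reached a fold of 3.

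**Figure D1:**
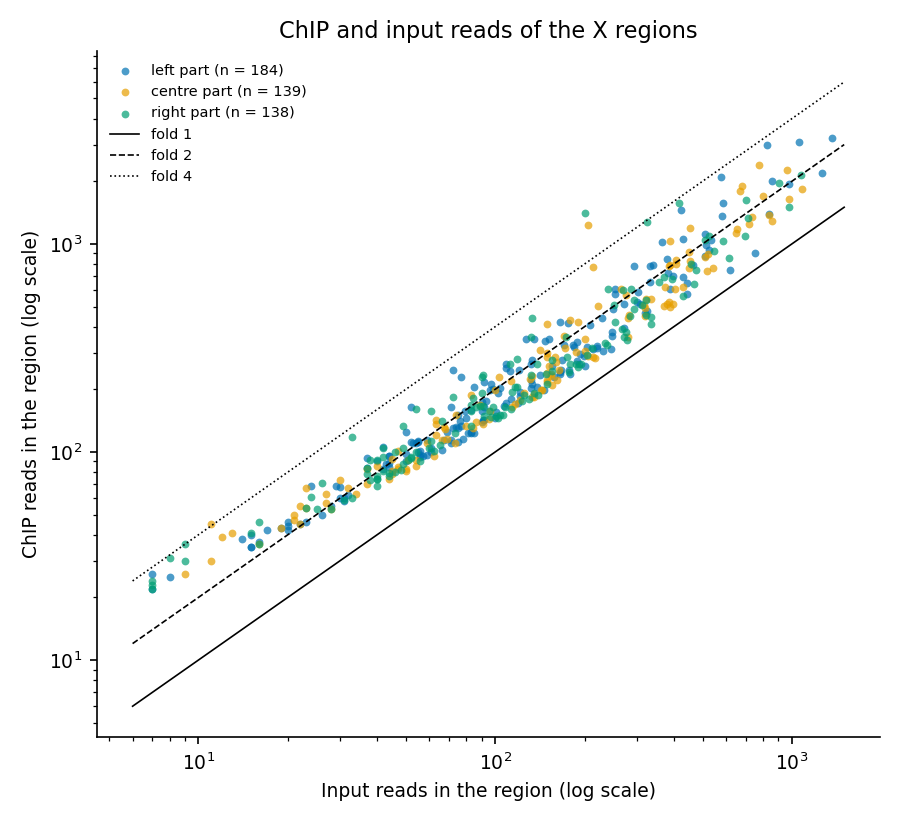
ChIP reads against input reads of each X region, both on log scales, coloured by the part of X in which the region lies. The lines mark a fold of 1, 2 and 4. The points run in a narrow band, and 2 regions with about 200 input reads stand above it at folds of 6.97 and 6.02.

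ChIP and input reads rose together with width. Input reads per kb of region were nearly level along X, with a median of 112 and quartiles of 98.5 and 125. Across the 461 regions the Spearman coefficient between width and input reads was 0.99, and the Pearson coefficient on log10 scales was 0.97. The same coefficients between width and ChIP reads were 0.98 and 0.95. These describe regions that share the same libraries, and the reads of a region grow with its length by construction. Fold and width were weakly opposed, with a Spearman coefficient of -0.28.

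The q-value limit left its mark on the low-read end of the list. The lowest fold listed was 1.82 among the 58 regions with fewer than 100 reads of both kinds. It was 1.42 among the 159 regions with at least 100 but under 300 reads, 1.23 among the 165 regions with at least 300 but under 1000 reads, and 1.20 among the 79 regions with 1000 or more. A small region of low fold could not enter the list, so the fold of small regions is high by selection. Precision followed the same order. The upper limit of the fold was 3.04 times the lower limit at the median of the first of these classes and 1.24 times at the median of the last.

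Along the chromosome, X was divided into a left part below 6.14 Mb, a centre, and a right part from 12.48 Mb, by the midpoint of each region. The left bound fell in a gap of 33.6 kb and the right bound in a gap of 285 kb, and no region lay across either. The left part was the most densely occupied. It held 184 regions, or 30.0 per Mb, which was 39.9% of the X regions (interval 35.4 to 44.5) on 34.8% of the span. The centre held 139 regions, or 21.9 per Mb, which was 30.2% (26.0 to 34.6) on 36.0% of the span. The right part held 138 regions, or 26.8 per Mb, which was 29.9% (25.8 to 34.3) on 29.2% of the span. At these bounds the centre was thus the sparsest by number.

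At the same bounds, covered length and reads set the left part apart more than they separated the other two. The left part had 50.8 kb of listed DNA per Mb, the centre 41.9 kb and the right part 43.1 kb. Excess reads came to 5676 per Mb on the left, 4333 in the centre and 4217 on the right. The left part thus held 41.5% of the X excess, the centre 32.7% and the right part 25.8%. Here the centre was the lowest by covered length as well as by number, although its median region was the widest. Most of the 285 kb gap at the right bound counted as centre. With 3 parts of equal length the right part was the lowest, with 30.6% of regions against 31.2% in the centre. Its share of covered length was then 29.8%, against 33.4% in the centre. Median width was 990 bp on the left, 1195 bp in the centre and 984 bp on the right, with binomial 95% intervals of the median of 844 to 1214, 938 to 1558 and 840 to 1263 bp that overlap. Regions over 3 kb made up 17.4%, 23.7% and 14.5% of these parts in that order.

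The fold differed little between the parts. Its median was 1.92 on the left (quartiles 1.57 and 2.26), 1.75 in the centre (1.54 and 2.14) and 1.81 on the right (1.58 and 2.18). The quartile ranges of all 3 parts overlapped almost fully. The order of spread depended on the measure. By SD the right part was the widest, with 0.729 over its 138 regions, against 0.598 in the centre and 0.493 on the left. The SD on the right includes the highest fold of the X list, 6.97. By the quartiles above the left part was the widest. The right part held 11 of the 25 regions with a fold of 3 or more, and the left part held 8 and the centre 6. Of these 25 regions, 12 were under 200 bp wide, where few reads let only a high fold pass the limit. More of these 12 lay on the right than in either other part. Regions under a fold of 1.5 made up 16.8% of the left part, 19.4% of the centre and 21.7% of the right part. Median input reads per kb were 108 on the left, 118 in the centre and 110 on the right. Median ChIP reads per kb were 197, 206 and 194 in that order, so the centre was the highest in both. Its regions also held the most ChIP reads at the median, 229 against 201.5 on the left and 182.5 on the right. The part of input level, width or read number in the lower median fold of the centre was not tested.

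Bins of 1 Mb varied in number by a factor of 3.7 and in fold by a factor of 1.23. Over the 17 complete bins there were 26.2 ± 7.67 regions per bin and 45.7 ± 12.6 kb of covered length (SD over bins). The median fold of a bin lay between 1.66 and 2.04, with a mean of 1.84 ± 0.110. Median input reads per kb lay between 96.9 and 122. The bins therefore differed mainly in how many regions they held and how long these were.

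The most occupied bin was 10 to 11 Mb, in the centre. It had 37 regions, 72.5 kb of covered length and 8955 excess reads, which was 10.7% of the X total. Of its regions 26 were within 1 kb of a neighbour. The bins 2 to 3 Mb and 4 to 5 Mb, both on the left, followed with 7679 and 7600 excess reads from 36 and 31 regions. At the other end, the first bin held 23 regions but only 25.7 kb and 1657 excess reads, with a median width of 570 bp. This was the smallest excess of any complete bin, 5.40 times below the largest.

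Number and covered length parted at 12 to 13 Mb. This bin had the fewest regions, 10, and the widest median, 2839 bp. Its 37.9 kb of covered length and 4987 excess reads were nevertheless close to the mean bin (45.7 kb and 4844 reads). Of its 10 regions 9 were isolated by 10 kb or more on both sides and 0 lay within 1 kb of another. They included regions of 7611, 7919 and 7622 bp, with folds of 1.64, 2.00 and 1.54, and the compact region from 12691502 to 12694383, with a fold of 3.76.

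**Figure D2:**
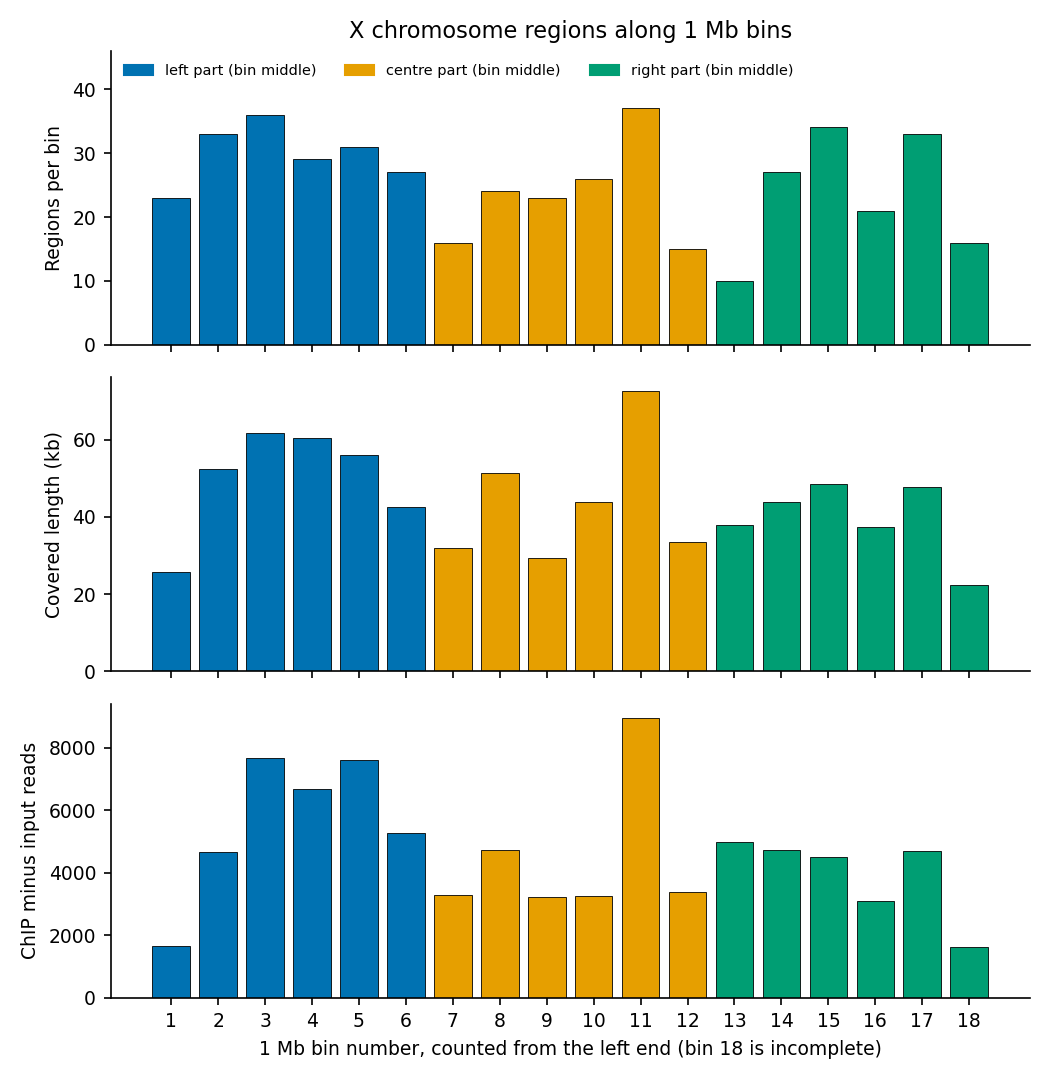
Number of regions, covered length in kb and ChIP minus input reads in 1 Mb bins of X, numbered from the left end and coloured by the part that holds the middle of the bin. Bin 11 is highest in all 3 panels, and bin 13 is lowest by number among complete bins but not by length or reads.

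The gaps between neighbouring X regions fell into a short and a long class. Of 460 gaps, 138 (30%) were under 1 kb, 73 (15.9%) were 1 to 10 kb, 203 (44.1%) were 10 to 100 kb and 46 (10%) were 100 kb or more. In steps of 0.2 on the log10 scale, the share was 11.1% at 2.4 to 2.6, only 2.39% at 3.8 to 4 (gaps just below 10 kb) and 10.4% at 4.6 to 4.8. On the 5 autosomes the same 3 steps held 13.8%, 5.12% and 3.61%, with no second peak as high as the one on X. The median gap on X was 13784 bp, against 1157 to 1711 bp on single autosomes. These values are from full lists, with 26.2 regions per Mb on X and 64.7 (chromosome V) to 129 (chromosome I) on autosomes. Gaps are shorter where regions are denser, and these gap shares were not compared at equal density. The smallest gap in the list was 200 bp, so closer pieces of DNA appear as 1 region.

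A region was called isolated when both neighbours were 10 kb or more away, clustered when 1 neighbour was under 1 kb away, and intermediate otherwise. On X 134 regions were isolated (29.1%, interval 25.0 to 33.4), 105 were intermediate (22.8%) and 222 were clustered (48.2%, 43.5 to 52.8). On single autosomes 4.73% (chromosome I) to 7.24% (chromosome IV) were isolated and 60.6% (chromosome II) to 68.7% (chromosome V) were clustered. Isolation depends on how many regions there are. The autosomal lists were therefore cut to their strongest regions by q-value until each had the X density of 26.2 per Mb, a step chosen after the data were seen. The isolated share of the autosomes then lay between 21.8% on chromosome V and 33.2% on chromosome I, a range that holds the X value. The clustered share lay between 30.6% on chromosome II and 50.5% on chromosome V, and the X value of 48.2% lay above those of I, II, III and IV and below that of V. The counting intervals cannot weigh this difference, since a clustered region makes its neighbour clustered too. The 222 clustered regions of X formed only 84 runs. The cut autosomal lists hold strong regions only, whereas the X list holds all. In the stronger 50% of X regions, which are sparser than the cut lists, the clustered share was 33.5%.

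**Figure D3:**
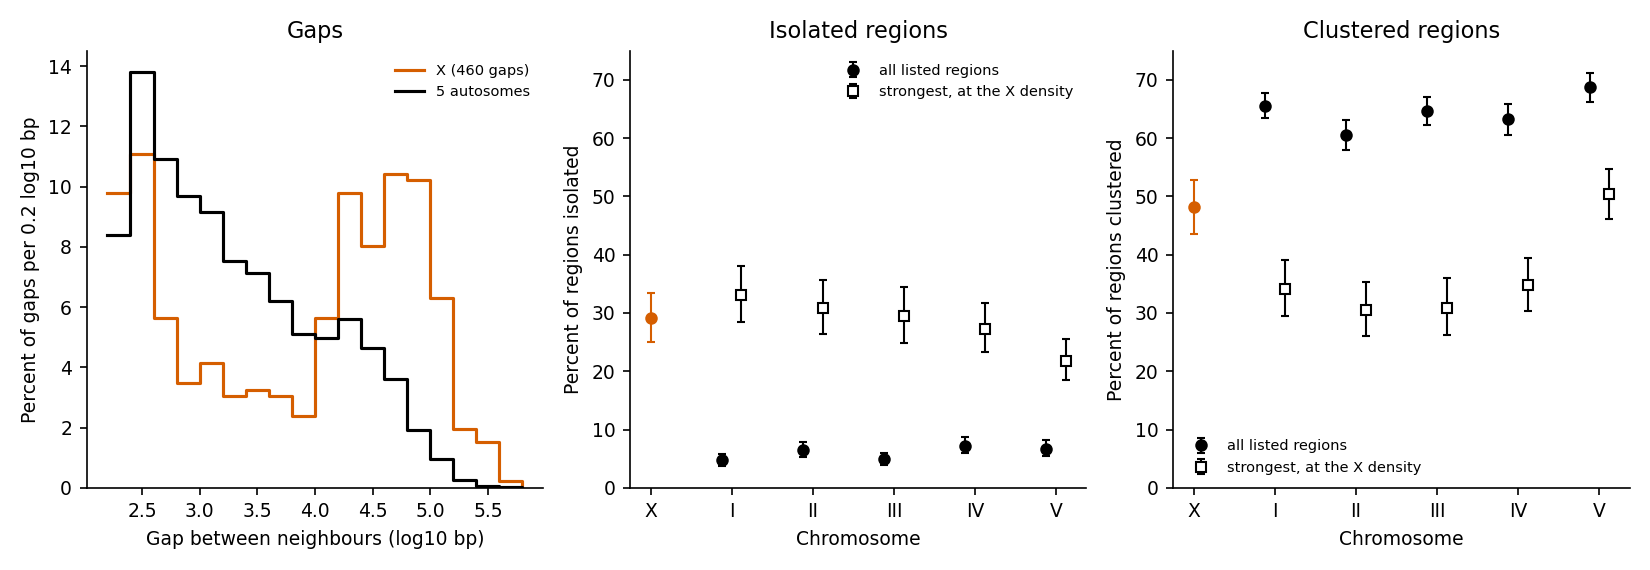
Left, percent of gaps between neighbouring regions per 0.2 log10 bp on X and on the 5 autosomes. Middle and right, percent of isolated and clustered regions on X and each autosome with exact 95% intervals, for all listed regions and for the strongest regions at the X density of 26.2 per Mb. X has 29.1% isolated regions, far above the full autosomal lists and inside the range of the cut lists.

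Isolated regions of X were narrower than clustered ones and had slightly higher folds. Median width was 728 bp for isolated and 1234 bp for clustered regions, with 1000 bp for intermediate ones. Median fold was 1.91 for isolated (quartiles 1.64 and 2.29) and 1.76 for clustered regions (1.53 and 2.13). Both distributions overlapped widely. A fold of 3 or more was reached by 11 of 134 isolated regions (8.21%) and 7 of 222 clustered ones (3.15%). A fold under 1.5 was seen in 11.9% of isolated and 22.1% of clustered regions. Isolated regions also held fewer reads, with medians of 147 ChIP and 84.5 input reads against 238.5 and 142 for clustered ones. With fewer reads a region passes the q-value limit only at a higher fold. The part of this selection in the difference in fold was not tested. The widths did not order the same way in the stronger 50% of X regions, where the isolated median was 2201 bp and the clustered median 1919 bp, so the difference of -505.5 bp became 282.5 bp. The difference in fold kept its sign there, at 0.119 against 0.152 over all X regions.

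By share, isolation was highest at both ends of the width scale, where the classes were small. There 10 of 27 and 12 of 31 regions were isolated. No interval was computed for these shares or for those beside empty stretches, so their counting error was not measured. Of the 27 regions under 200 bp 37.0% were isolated. Of the 197 regions from 200 bp to under 1 kb 34.5% were isolated, and of the 31 regions of 5 kb or more 38.7% were. In between, 21.1% of regions of 1 to 3 kb and 22.2% of regions of 3 to 5 kb were isolated, and 55.9% and 53.7% of these classes were clustered. Regions of 5 kb or more also often bordered an empty stretch of 100 kb or more, in 11 of 31 cases (35.5%), against 88 of 461 over all X regions (19.1%). The shortest regions, under 200 bp, did so in 9 of 27 cases (33.3%). The regions of 5 kb or more were of both kinds, with 12 isolated and 14 clustered.

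**Figure D4:**
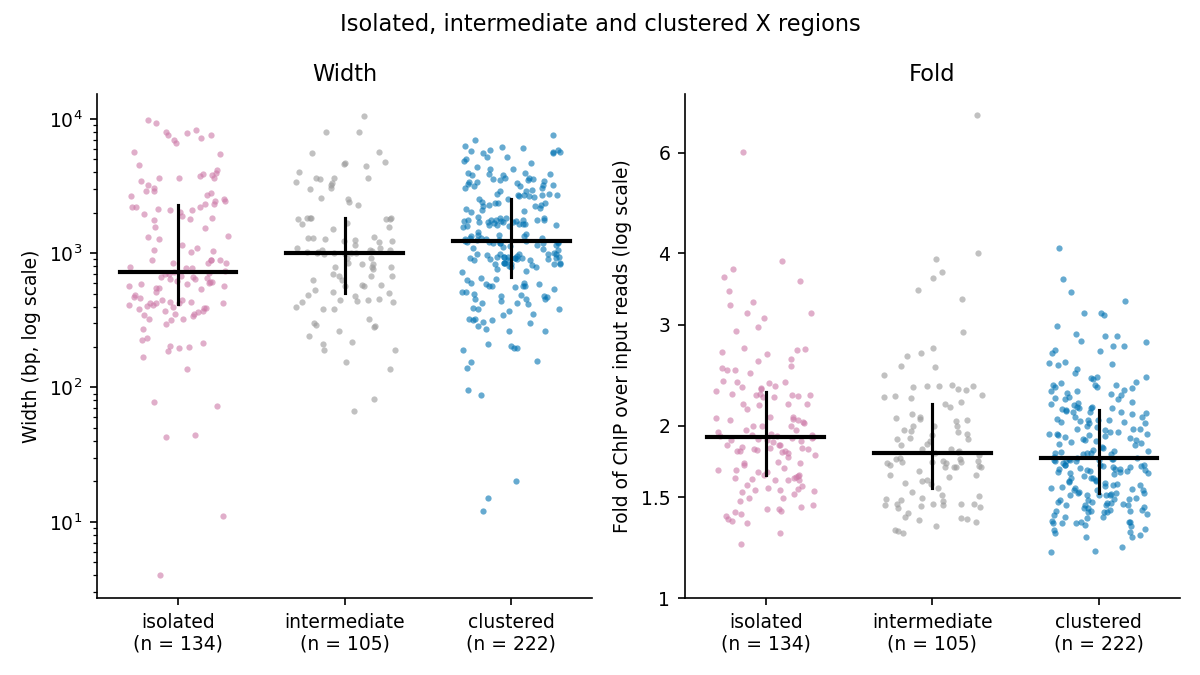
Width in bp and fold of ChIP over input reads, both on log scales, of isolated, intermediate and clustered X regions. Each point is 1 region, horizontal bars are medians (728, 1000 and 1234 bp, and folds of 1.91, 1.79 and 1.76) and vertical bars join the quartiles.

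The share of isolated regions grew from left to right, within counting error. It was 25% on the left (18.9 to 31.9), 29.5% in the centre (22.1 to 37.8) and 34.1% on the right (26.2 to 42.6). The clustered share was 47.3% on the left, 52.5% in the centre and 44.9% on the right. In each part the isolated median fold was above the clustered one, at 1.94 against 1.87 on the left, 1.89 against 1.74 in the centre and 1.85 against 1.74 on the right.

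The 222 clustered regions formed 84 runs, defined as neighbours joined by gaps under 1 kb. Of these, 53 were pairs and 10 had 4 or more members, and the median run spanned 4.60 kb. In a pair the member with the larger excess holds at least 50% by definition, and its median share over the 53 pairs was 67.5%. In the 31 runs of 3 or more members the leading member held between 29.0% and 91.6% of the excess, with a median of 52.9%, and more than 50% in 18 of them. Leading members are wider by choice, since excess grows with width. They had a median width of 2669 bp and a median of 508 ChIP and 272 input reads, whereas the 138 other members had a median width of 931 bp and 186 ChIP and 107 input reads. Their median folds were close, at 1.84 for leading and 1.74 for other members.

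As ratios of summed reads, the folds of the 3 runs with the most members were below the 1.92 of all X regions summed. Over the 222 clustered regions alone this ratio was 1.81, which is closer to these runs. The run from 1508459 to 1523559 on the left joined 8 regions over 15.1 kb, with 2111 ChIP and 1178 input reads and a fold of 1.79, and 81.4% of its span was listed. The run from 9099819 to 9112698 in the centre joined 6 regions over 12.9 kb at a fold of 1.66. The run from 3546451 to 3558246 on the left joined 6 regions over 11.8 kb at a fold of 1.68. None of the 3 had a member with more than 50% of the excess, the highest share being 43.0%. Single members differed, and the region from 3557603 to 3558246 in the last of these runs had a fold of 3.15 (2.30 to 4.40). The longest run by span, from 3450477 to 3468422, joined 4 regions over 17.9 kb at a fold of 1.98.

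Joining up to gaps of 10 kb, a setting chosen after the data were seen, gave 250 islands, of which 136 were single regions. The largest had 10 regions and lay on the right from 13861787 to 13881148. It spanned 19.4 kb, of which 58.4% was listed, with 2142 ChIP and 1375 input reads and a fold of 1.56. Its widest member, of 2245 bp, held 25.3% of the excess. This island alone made up the most crowded 100 kb window of X, from 13800001 to 13900000. The next windows by number held 9 regions each, from 1500001 to 1600000 and from 10600001 to 10700000. The islands in these 3 windows had folds of 1.56, 1.77 (1508459 to 1525611) and 1.77 (10604848 to 10615558), as ratios of summed reads. All were below the 1.92 of all X regions summed, and the values of 1.77 were near the 1.81 of all clustered regions summed.

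Neighbouring regions resembled each other little in strength. Across the 138 pairs with gaps under 1 kb the Spearman coefficient between the log2 folds was 0.17, and the median absolute difference was 0.29 on the log2 scale. Across the 73 pairs with gaps of 1 to 10 kb the coefficient was -0.02 and the median difference 0.31. Across the 249 pairs 10 kb or more apart the coefficient was 0.08 and the median difference 0.33. Pairs share members and libraries.

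Much of X lay in long empty stretches. The 46 gaps of 100 kb or more added up to 7.98 Mb, or 45.3% of the span. They took up 54.1% of the centre (18 stretches), 43.7% of the right part (13) and 37.5% of the left part (15). On full autosomal lists the share of the span ran from 6.19% on chromosome III to 34.6% on chromosome V. In the lists cut to the X density it ran from 42.5% on chromosome I to 54.6% on chromosome V, and the X share lay inside this range.

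The longest empty stretch ran from 11606510 to 12075742, over 469 kb, in the centre. The next were 15738675 to 16124503 on the right (386 kb), 1525612 to 1845914 on the left (320 kb), 13225773 to 13520985 on the right (295 kb), 9517359 to 9809744 in the centre (292 kb) and 12202312 to 12487257 in the centre (285 kb). Of the 12 stretches over 200 kb, 7 were in the centre at the bounds used, and this number also depends on the bounds. The first and the last of the 6 longest lay close together, so that 881 kb from 11606510 to 12487257 held only 3 regions. Their folds ran on both sides of the X median of 1.82. They covered 16.0 kb and held 1957 excess reads, and the region from 12167772 to 12173404 among them had a fold of 2.69 from 1799 ChIP and 668 input reads. The other folds were 1.64 (12075743 to 12083353) and 2.05 (12199516 to 12202311). The third longest stretch began right at the end of the island that contains the largest run. An empty stretch holds no region that passed the q-value limit, and weaker binding in it is not measured by the list.

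A small number of regions carried much of the signal. The 50 regions with the largest excess, 10.8% of all X regions, held 50% of the 83981 excess reads. They were broad, with a median width of 5548 bp, and had a median fold of 2.28 with a range of 1.51 to 6.97. They were spread over 16 of the 18 bins, with 20 on the left, 19 in the centre and 11 on the right, and 17 of them were isolated, 14 intermediate and 19 clustered. The weaker 230 X regions by excess together held 12.5%. On single autosomes the share of regions needed for 50% of the excess ran from 10.3% on chromosome III to 12.2% on chromosome I. The 47 X regions with the largest excess had a median width of 5555 bp and a median fold of 2.33, against 2272 to 3202 bp and 2.68 to 3.15 for the same share of regions on single autosomes.

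By q-value the first listed X region lay from 5478760 to 5485752 on the left, 6993 bp wide. Its 2980 ChIP reads stood against 826 input reads, which is a fold of 3.61 (3.34 to 3.90). Its recovered rank over the whole genome, which counts the 47 ranks without a line, was 54, with q = 6.71e-281. It closed a run of 3 regions and supplied 91.6% of that run's excess, with a free stretch of 32.0 kb on its right. The second, from 2696584 to 2706299 on the left, was also the second widest on X at 9716 bp. Its fold was 2.93 (2.73 to 3.14), from 3083 ChIP and 1054 input reads. Its nearest neighbours were 119 kb and 88.5 kb away, which made it the strongest isolated region among those listed on X.

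The other regions among the 10 lowest q-values lay on both sides of 3 kb in width. Those over 3 kb lay from 4960485 to 4965171 (4687 bp, fold 3.63), 10199145 to 10205790 (6646 bp, fold 3.09), 3115676 to 3126082 (10407 bp, fold 2.36), 4523752 to 4526973 (3222 bp, fold 3.46) and 10571373 to 10577185 (5813 bp, fold 2.80). Each held between 1463 and 3220 ChIP reads. Those under 3 kb lay from 14489871 to 14491661, 8158966 to 8160523 and 12691502 to 12694383. After the one just named, the strongest isolated regions were those from 10199145 to 10205790 and from 8158966 to 8160523. In all, 5 of the 10 lay on the left, 3 in the centre and 2 on the right, and 9 of the 10 were also among the 20 X regions with the highest lower limit of the fold.

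The 2 X regions with the highest folds were both under 2 kb wide. The region from 14489871 to 14491661 on the right was 1791 bp wide and had a fold of 6.97 (6.01 to 8.12), from 1401 ChIP and 201 input reads. The region from 8158966 to 8160523 in the centre was 1558 bp wide and had a fold of 6.02 (5.19 to 7.01), from 1234 ChIP and 205 input reads. Their ChIP reads per kb were 782 and 792, against a median of 199 over all X regions, while their input reads per kb of 112 and 132 were near the median of 112. The high fold of both therefore lay in the ChIP reads. The next by the lower limit of the fold were 13143242 to 13145645 at 3.91 (3.46 to 4.44), 12691502 to 12694383 at 3.76 (3.37 to 4.20) and the strongest region by q-value at 3.61. The intervals of the first 2 did not overlap those of these 3, but all 5 were picked by the lower limits of these same intervals. No listed X region had a fold above 6.97. The highest listed fold on single autosomes ran from 11.3 on chromosome III to 36.0 on chromosome II. Regions at the first 47 ranks, which have no line, are missing from this comparison. The full autosomal lists are longer and hold more small regions, whose folds are high by selection. In the lists cut to the X density the highest fold ran from 9.41 on chromosome I to 36.0 on chromosome II.

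The widest regions differed in strength. Apart from the 10407 bp and 9716 bp regions described above, the 5 widest were 9508120 to 9517358 in the centre (9239 bp, 1845 ChIP and 1078 input reads, fold 1.71, 1.59 to 1.85), 6809398 to 6817606 in the centre (8209 bp, fold 1.68, 1.56 to 1.83) and 4610159 to 4618176 on the left (8018 bp, fold 1.73, 1.61 to 1.85). Both in the centre were isolated and each bordered a stretch of over 200 kb, 292 kb and 248 kb long. The region from 4610159 to 4618176 had 158 input reads per kb, the highest of any region of 5 kb or more on X. Regions of 5 kb or more made up 6.72% of X regions, 26.4% of the covered length and 33.0% of the excess.

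At the narrow end, 27 X regions were under 200 bp. The narrowest, from 12624609 to 12624612, was 4 bp wide. Its fold of 3.14 came from 22 ChIP and 7 input reads, and the interval ran from 1.30 to 8.71. Their median fold of 2.88 was the highest of any width class and no member was below 2.10, but with a median of 36 ChIP reads they could pass the limit only at a high fold. Together they held 0.711% of the excess. At the low end of the fold, the region from 372265 to 377107 on the left was 4843 bp wide and had a fold of 1.20 (1.08 to 1.34), from 745 ChIP and 619 input reads.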

How the data were processed

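RNA polymerase II ChIP and input DNA were sequenced from wild-type early embryos. Per the file headers, the authors deposited 1 list of regions in WormBase WS180 coordinates, made with PeakSeq, with a q-value for each region. For the aligner, the settings, the library depths and the joining of replicates, the sources used here give nothing.

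Ranks were recovered from neighbouring lines whose q-values differed by the ratio of consecutive ranks (2665 pairs), which put the first line at rank 48. With 18572 as the number of tested regions, 41 of 41 scanned p-values equalled binomial tail probabilities at 0.5, against 1 for the next best number. A unique pair of ChIP and input reads, within 1e-09 in ln p, was then found for 8116 regions (99.9%), and for 0 regions when the number of tested regions was changed by 1. On a list simulated with the same binomial and rank rule the steps returned 100% of the pairs. This checks the calculation only and cannot show whether the authors scaled the input reads.

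X regions were divided by midpoint at 6.14 and 12.48 Mb, binned by 1 Mb and 100 kb, and classed by the gaps of 1 kb and 10 kb. Regions named are the 10 of lowest q-value, the 5 widest, the 5 of highest lower limit of the fold, the strongest 3 isolated regions, the strongest 2 of each part, the 3 largest runs, the 6 longest empty stretches, the highest and lowest bins and the densest 3 windows. The largest island, the longest run by span, 1 member of a run, the narrowest region, the one of lowest fold, and those in the bin from 12 to 13 Mb and between empty stretches were added after their values were seen. The divisions and rules were chosen with earlier results of these data known. Alternatives used the stronger 50% of regions, other bounds, distances, bins and windows, joined neighbours and summed reads. Python 3.11.15 with numpy 2.4.6, scipy 1.17.1, pandas 2.3.3 and matplotlib 3.10.9 was used.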

Additional observations from a re-analysis of the deposited data

How the results depend on the processing

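Of 64 alternatives to 22 results, 40 stayed within a 95% counting interval of the main value or, for the differences between classes, kept the sign with a change of under 50%. The shares of X regions in the 3 parts were among these under all settings tried. The settings were the stronger 50% of X regions by q-value, 3 parts of equal length, and gaps under 1 kb joined. The shares of covered length were counted among these too. Covered length is not a count, and its interval was copied in width from the share of regions. Its own spread was not measured. With 3 parts of equal length, the right part rather than the centre had the lowest density of regions and of covered length. In the stronger 50% of regions, median width was 2050 bp on the left, 2544 bp in the centre and 1751 bp on the right, and median fold was 2.00 on the left, 1.83 in the centre and 1.997 on the right. These regions were selected by q-value, which falls with width and fold. The isolated share became 52.6% and the clustered share 33.5% with fewer regions, and 29.5% of 100 kb windows were empty, against 18.2%. With classes from the full list, an alternative chosen after the data were seen, the stronger isolated regions had a median width of 2201 bp and fold of 2.03, the clustered ones 1919 bp and 1.91, and the width difference, isolated minus clustered, turned to 282.5 bp. With gaps under 1 kb joined, median width was 1186 bp on the left, 2083 bp in the centre and 1331 bp on the right. The left fold was 1.99 as a ratio of summed reads. With the distances at 0.5 and 2 times, 34.3% and 19.7% were isolated and 39.9% and 56.4% clustered. The SD of regions per bin over its mean was 0.293, or 0.379 with bins of 500 kb and 0.181 with bins of 2 Mb. Windows of 50 kb were empty in 42.9% of cases and windows of 200 kb in 5.68%. No paired analysis was possible because 1 list combines the replicates, and no replicate could be left out. Depth limits the list through the read number a region needs to pass, and regions below the limit are not measured.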
